A study of Homo sapiens with 2 samples.

Results

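Heat shock proteins and chaperones are described here in SBC5, a small cell lung cancer cell line, by 102 genes of the 12494 named genes in the deposited table. They were chosen by name: symbols that begin as those of the HSP70, HSP90, small heat shock, J protein, chaperonin, BAG, prefoldin, protein disulphide isomerase and FKBP families do, with 11 single genes of protein folding and of its stress sensors added. Names of pseudogenes were left out. Of the 102 members, 101 had at least 1 FPKM in either library and were compared, among 12405 such genes in all. FPKM counts fragments scaled to the length of a gene and to the size of the library, so that levels can be compared between genes.

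The comparison was of 1 library of SBC5 CPr cells, a cisplatin-resistant line derived from SBC5 by stepwise exposure to cisplatin at 1, 2, 4 and 20 μg/ml. It was set against 1 library of parental SBC5. Both lines were grown in medium with 10% serum, and polyadenylated RNA was read with strand-preserving libraries made from 500 ng of purified RNA. The labels do not say whether cisplatin was present at harvest, nor whether the resistant line is a clone. With 1 library per group there is no replicate check, no test was possible, and each difference compares these libraries, not the conditions. A fixed limit of 2-fold on the log2(FPKM + 1) scale stands in for a test, and "past 2-fold" has this meaning throughout.

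Chaperones bind unfolded or partly folded proteins and keep them from aggregating. HSP70 proteins work in cycles of ATP hydrolysis that J proteins start and nucleotide exchange factors such as BAG proteins end. HSP90 takes over late folding steps of kinases and receptors, the chaperonin rings enclose whole proteins, and prefoldin hands new actin and tubulin to the cytosolic ring. The transcription factor HSF1 induces many of these genes on heat or protein damage, and ATF6, IRE1 (ERN1) and XBP1 do so when proteins misfold in the endoplasmic reticulum.

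FPKM summed to 1081047 over the resistant library and to 1019555 over the parental library, and 17574 and 17075 loci reached 1 FPKM in them. The table holds no counts, so the depth is unknown. Of 11 marker genes of this and other cell types, 3 were measured. YAP1, a transcriptional coactivator that marks a subtype of small cell lung cancer, had 84.7 FPKM in the resistant and 76.6 FPKM in the parental library. KRT8, an epithelial keratin, had 2.36 and 2.09 FPKM, and the fibroblast collagen COL1A1 had 3.85 and 2.34 FPKM in the same order. The other markers were not analysed here.

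Few chaperone genes differed past 2-fold between the 2 libraries, and few of all genes did. None was past 2-fold higher in the resistant library, where 3.28% of all genes compared were, and 2 were past 2-fold lower, DNAJA4 and PFDN4, where 2.70% of all genes were. Of the 101 members, 96 (95.0%) lay within 1.5-fold, against 85.8% of all genes. With a mean of at least 100 FPKM, these shares were 97.2% of members and 93.1% of all genes. Below that mean they were 93.8% and 85.1%. The median log2 ratio of resistant over parental was -0.12 over the members and -0.04 over all genes, and 70 members (69.3%) had a ratio below 0, against 55.6% of all genes. When both libraries were scaled to the same sum, the medians were -0.20 over the members and -0.12 over all genes. Across genes, which are not independent replicates, log2 levels in the 2 libraries had a Pearson r of 0.987 over the members and 0.963 over all genes compared.

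**Figure D1:**
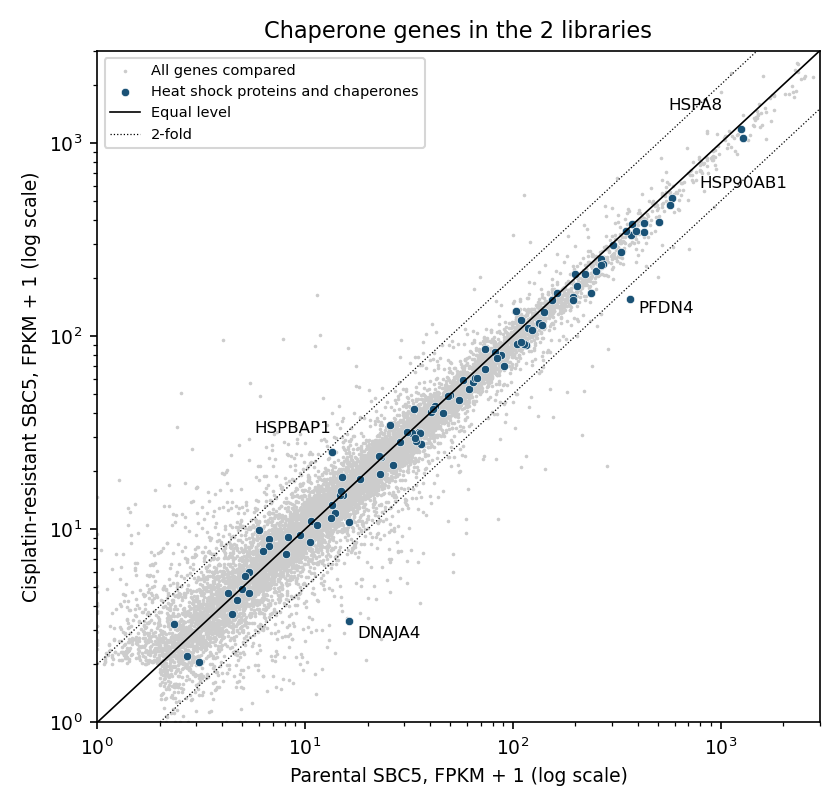
Level of each gene in cisplatin-resistant SBC5 (vertical axis) against parental SBC5 (horizontal axis), as FPKM + 1 on log scales, with the 101 members in dark blue and all 12405 genes compared in grey. The solid line marks equal levels and the dotted lines 2-fold; DNAJA4 and PFDN4 are the members below the lower dotted line, and 18 genes above 3000 on either axis, none a member, are not drawn.

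DNAJA4, a J protein that stimulates the ATPase of HSP70, had the lowest ratio of all members. It had 2.35 FPKM in the resistant library and 15.3 FPKM in the parental library, a log2 ratio of -2.28. Genes of like level had a 95% range of -0.94 to 1.05, so DNAJA4 lay outside it. It is annotated on chromosome 15, at chr15:78264086-78282196 on the plus strand (GENCODE 29). The table lists DNAJA4 only among loci placed on no strand, and the ratio of its FPKM values equals, within a relative tolerance of 1e-05, 2 to 13 times the relative worth of 1 read. Ratios of whole numbers up to 20 of this kind were found at 66.4% of loci without a strand and at 6.38% of loci on a strand. Such a ratio can come from few reads, and the number of reads behind DNAJA4 is unknown.

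Rows beside DNAJA4 that were also placed on no strand differed in direction, of which 3 are given. HYKK, a hydroxylysine kinase gene, had 0.644 FPKM in the resistant and 2.10 FPKM in the parental library (log2 ratio -0.92). CHRNA3, a nicotinic receptor subunit gene, had 2.92 FPKM in the resistant and 0.586 FPKM in the parental library (log2 ratio 1.31). PSMA4, a proteasome subunit gene, had 1.38 FPKM in each at this locus. Loci without a strand stood for 419 genes compared (3.38%), 39 of the 335 genes past 2-fold lower, and for 2 members, DNAJA4 and HSPA4. Their part in the DNAJA4 difference was not tested.

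PFDN4, a subunit of prefoldin, was the other member past 2-fold. It had 155 FPKM in the resistant library and 363 FPKM in the parental library, a log2 ratio of -1.23, where genes of like level ranged from -0.75 to 0.69. This is a locus on the plus strand, at the PFDN4 gene, chr20:54207847-54228052 (GENCODE 29), and PFDN4 ranked 332 of 12405 genes by mean level. Of the rows that follow it, FAM210B, a mitochondrial protein gene, had 12.0 FPKM in the resistant and 13.5 FPKM in the parental library (log2 ratio -0.16), and CSTF1, a subunit of the mRNA cleavage machinery, had 69.6 and 34.8 FPKM in the same order (log2 ratio 0.98).

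The sequences before the RefSeq starts of these genes are shown because they are the members past 2-fold. They are the 250 bases upstream of a RefSeq start, 5′ to 3′ on the plus strand (GRCh38.p14), at chr15:78263895-78264144 for 1 of 3 windows of DNAJA4 and at chr20:54207837-54208086 for PFDN4. The GENCODE starts given above lie further upstream, so that the last 59 bases of the DNAJA4 sequence and the last 240 bases of the PFDN4 sequence fall inside the gene as GENCODE places it. The GC content is 63.6% for DNAJA4 and 60.8% for PFDN4. Neither window holds any of the 3 elements searched for below, and the absence of these letters says nothing about a factor.
DNAJA4: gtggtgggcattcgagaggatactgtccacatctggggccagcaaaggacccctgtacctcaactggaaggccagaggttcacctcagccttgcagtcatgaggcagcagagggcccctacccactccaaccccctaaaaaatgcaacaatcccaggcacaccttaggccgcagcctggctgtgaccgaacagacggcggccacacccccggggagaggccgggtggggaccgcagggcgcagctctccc
PFDN4: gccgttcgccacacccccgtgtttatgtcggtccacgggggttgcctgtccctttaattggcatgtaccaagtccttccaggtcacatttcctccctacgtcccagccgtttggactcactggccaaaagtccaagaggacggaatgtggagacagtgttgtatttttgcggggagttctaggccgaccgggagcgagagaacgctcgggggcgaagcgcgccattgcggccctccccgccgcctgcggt

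The members within 2-fold that came nearest to the limits were HSPBAP1 and DNAJB5 on the higher side and HSPA2 and DNAJC17, farther from the limit, on the lower side. HSPBAP1, named for binding the small heat shock protein HSPB1, had 24.2 FPKM in the resistant and 12.6 FPKM in the parental library (log2 ratio 0.90), above 0.84, the upper end of its 95% range at like level. DNAJB5, a J protein, had 8.86 FPKM in the resistant and 4.97 FPKM in the parental library (log2 ratio 0.72). On the lower side, HSPA2, an HSP70 known for its part in spermatogenesis, had 1.05 and 2.07 FPKM (log2 ratio -0.59), and DNAJC17, a J protein with an RNA-binding motif, had 9.90 and 15.2 FPKM (log2 ratio -0.57), resistant first. HSPB11, not near a limit and likewise named like a small heat shock protein but a part of ciliary transport, had 40.7 FPKM in the resistant and 40.3 FPKM in the parental library. Besides DNAJA4 and PFDN4, HSPBAP1 was the only member outside that range for its level.

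**Figure D2:**
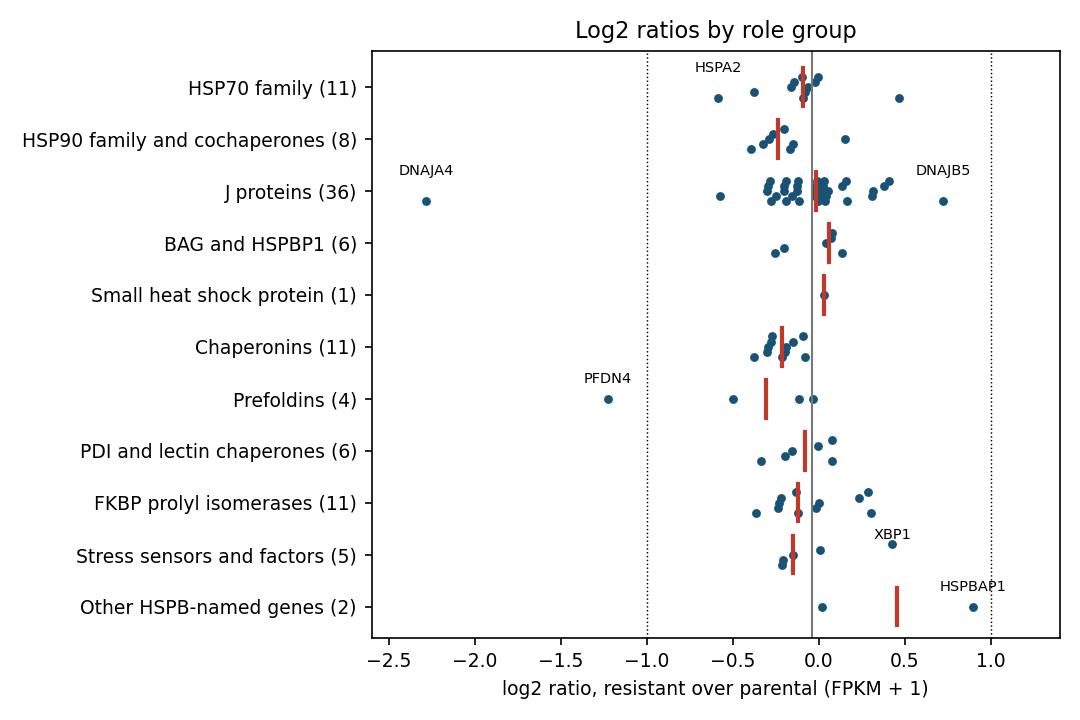
Log2 ratio of resistant over parental FPKM + 1 for each member (points), by role group with the number compared in parentheses. Red bars are group medians, the grey line is the median of all genes compared (-0.04) and the dotted lines mark 2-fold; DNAJA4 and PFDN4 lie past the lower line, and the chaperonins lie together below 0.

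Of the HSP70 proteins, 11 were compared and none was past 2-fold, with a median log2 ratio of -0.09. HSPA8, the constitutive cytosolic HSP70, was the most abundant of all members by mean level, rank 61 of 12405 genes. It had 1182 FPKM in the resistant and 1248 FPKM in the parental library (log2 ratio -0.08). HSPA5 (BiP), the HSP70 of the endoplasmic reticulum, had 153.2 FPKM in the resistant and 153.6 FPKM in the parental library. HSPH1, a nucleotide exchange factor of HSP70, had 248 and 266 FPKM in the same order (log2 ratio -0.10). These levels were close in both lines. HSPA9, the mitochondrial HSP70, had 181 FPKM in the resistant and 202 FPKM in the parental library (log2 ratio -0.16). HSPA4, another exchange factor, was represented by a locus without a strand at 88.5 and 115 FPKM (log2 ratio -0.37), and its locus on a strand had 68.4 and 78.8 FPKM (log2 ratio -0.20), resistant first. The highest ratio was that of HSPA12B, a distant HSP70 of endothelial cells, at 2.22 FPKM in the resistant and 1.34 FPKM in the parental library (log2 ratio 0.46). Its values are in the ratio 5 to 3 of whole read worths, which can come from few reads. The heat-induced HSPA6 stayed below the 1 FPKM filter, with 0.548 FPKM in the resistant and 0.458 FPKM in the parental library. HSPA1A and HSPA1B, the main heat-induced HSP70 genes, were not analysed here.

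HSP90 and its cochaperones were 8 members with a median log2 ratio of -0.24, and 7 of them had a ratio below 0 under each of 3 scalings. All but FKBP5 had a mean of at least 100 FPKM. With the deposited values, 55.6% of all genes compared had a ratio below 0, and 72.3% of those at that level. HSP90AB1, the constitutive cytosolic HSP90, had 1063 FPKM in the resistant and 1279.5 FPKM in the parental library (log2 ratio -0.27). HSP90AA1, the inducible form, had 519 and 583 FPKM (log2 ratio -0.17), and HSP90B1 (GRP94) of the endoplasmic reticulum had 331 and 368 FPKM (log2 ratio -0.15), resistant first. All 3 were lower in the resistant library, and none came near 2-fold. FKBP5, a prolyl isomerase that binds HSP90 in steroid receptor complexes, was at a locus that the table joins with a noncoding gene, at 26.5 FPKM in the resistant and 35.3 FPKM in the parental library (log2 ratio -0.40), the lowest ratio of the group. FKBP4, its relative in the same complexes, had 89.5 FPKM in the resistant and 112 FPKM in the parental library (log2 ratio -0.33), and AHSA1, which speeds the ATPase of HSP90, had 115 and 133 FPKM (log2 ratio -0.20). STIP1, which bridges HSP70 and HSP90, had 159 and 194 FPKM in the same order (log2 ratio -0.29). CDC37, which brings kinases to HSP90, stood on the other side, with 120.3 FPKM in the resistant and 108 FPKM in the parental library (log2 ratio 0.15). HSP90 and HSPA8 have many near-identical pseudogene copies, and how reads were shared among them is not given in the sources used here.

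J proteins were the most numerous, with 36 compared, 1 past 2-fold lower (DNAJA4) and none higher, and a median log2 ratio of -0.02. The other class A members, which like DNAJA4 carry a zinc-binding region, did not share its ratio. DNAJA1 had 166 FPKM in the resistant and 162 FPKM in the parental library (log2 ratio 0.03), and DNAJA2 had 81.4 and 81.2 FPKM (log2 ratio 0.00), where both signs depend on the scaling. DNAJA3 was not analysed here. DNAJB1, the heat-induced partner of HSP70, had 42.4 FPKM in the resistant and 41.2 FPKM in the parental library (log2 ratio 0.04, a sign that also depends on the scaling). DNAJC10, a disulphide reductase of the endoplasmic reticulum, had 134 FPKM in the resistant and 102 FPKM in the parental library (log2 ratio 0.38). DNAJC15, of the mitochondrial inner membrane, had 114 and 138 FPKM in the same order (log2 ratio -0.28). By class, the 9 class B members had a median of 0.04 and the 24 class C members one of -0.07. DNAJB4 had 7.87 FPKM in the resistant and 5.70 FPKM in the parental library (log2 ratio 0.41), and DNAJC21, which works in ribosome assembly, had 40.9 and 32.6 FPKM (log2 ratio 0.32). Of the 36, 12 had a sign that depends on the scaling.

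The 6 BAG and HSPBP1 members, exchange factors of HSP70, had a median log2 ratio of 0.06, which was -0.02 with libraries scaled to the same sum. BAG3, which works in stress-induced autophagy, had 28.5 FPKM in the resistant and 33.0 FPKM in the parental library (log2 ratio -0.20). BAG4 had the lowest ratio, at 18.3 and 22.1 FPKM (log2 ratio -0.26), and BAG5 the highest, at 8.11 and 7.30 FPKM (log2 ratio 0.13), resistant first. HSPBP1 had 30.8 and 29.8 FPKM, and BAG2 had 23.0 and 21.9 FPKM, both with a sign that depends on the scaling. HSPB1 (HSP27), the small heat shock protein measured, had 381 FPKM in the resistant and 373 FPKM in the parental library (log2 ratio 0.03, below 0 when both libraries are scaled to the same sum).

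All 11 chaperonin members had a ratio below 0, under each of the 3 scalings, and none was past 2-fold. Their median log2 ratio was -0.21, with a range of -0.38 to -0.08. All but CCT6B had a mean of at least 100 FPKM. Among all genes at that level 72.3% had a ratio below 0, with a median of -0.11. TRiC, the cytosolic ring that folds actin and tubulin, was measured by 8 subunits, whose summed level was 2007 FPKM in the resistant and 2383 FPKM in the parental library. CCT3 had 387 FPKM in the resistant and 504 FPKM in the parental library (log2 ratio -0.38), the lowest ratio of the ring. CCT7 had 346 and 425 FPKM (log2 ratio -0.30), and CCT4 had 272 and 330.3 FPKM (log2 ratio -0.28), resistant first. TCP1, CCT2 and CCT8 lay between 216 and 236 FPKM in the resistant and between 251 and 271 FPKM in the parental library, and CCT5 had 109 and 117 FPKM. CCT6B, a testis form, had 1.20 FPKM in the resistant and 1.72 FPKM in the parental library. Every subunit of the ring was thus lower in the resistant library, by little: CCT6A, nearest to equal, had 209 FPKM in the resistant and 221 FPKM in the parental library (log2 ratio -0.08). CCT6A has pseudogene rows in the table, which were left out. HSPD1 (HSP60), the ring of mitochondria, had 474 FPKM in the resistant and 572 FPKM in the parental library (log2 ratio -0.27). HSPE1 (HSP10), its lid, was at a locus joined with MOB4, at 350.4 FPKM in the resistant and 389 FPKM in the parental library (log2 ratio -0.15).

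**Figure D3:**
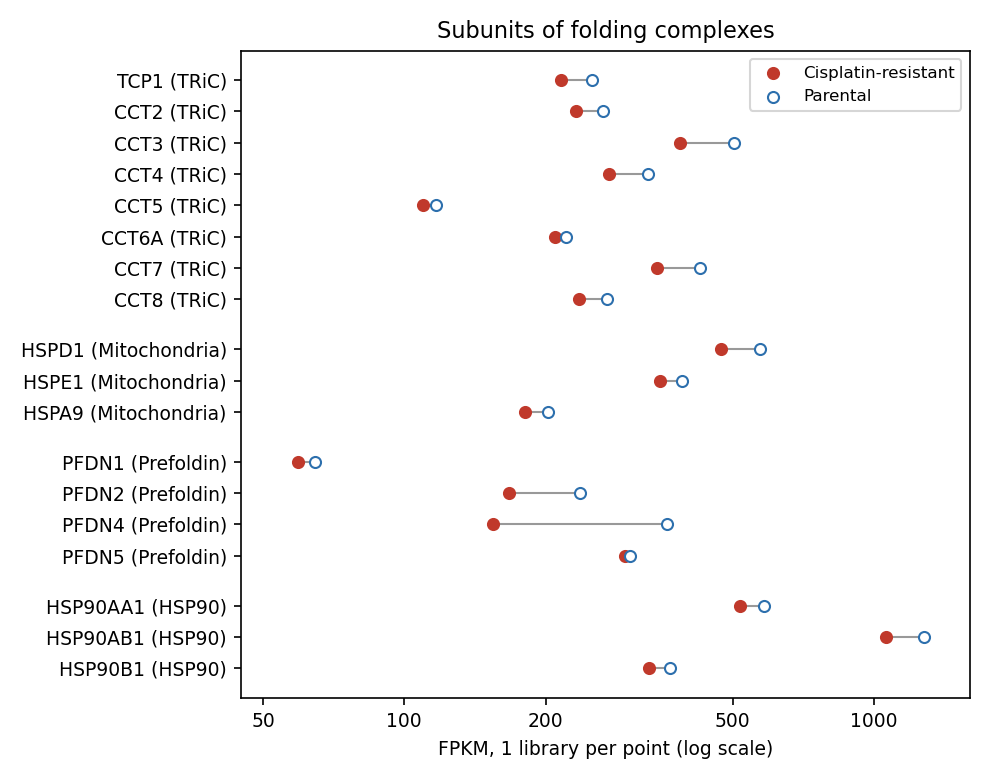
FPKM of single subunits (log scale) in the resistant library (filled red) and the parental library (open blue), joined by a line, for TRiC, mitochondrial chaperones, prefoldin and HSP90. PFDN4 has the longest line (155 and 363 FPKM), and every subunit drawn is lower in the resistant library, PFDN5 only under the deposited and same-sum scalings.

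The 4 prefoldin members were unequal. PFDN2, which belongs to the same hexamer as PFDN4, had 167 FPKM in the resistant and 236 FPKM in the parental library (log2 ratio -0.50). PFDN1 had 59.4 and 64.5 FPKM (log2 ratio -0.12), and PFDN5 had 295 and 303 FPKM (log2 ratio -0.04, above 0 when divided by the median ratio), resistant first. The difference of PFDN4 was thus not shared in size by the other subunits. VBP1, a further subunit, added after values were seen, had 63.1 FPKM in the resistant and 69.7 FPKM in the parental library (log2 ratio -0.14).

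Of the 6 disulphide isomerase and lectin members, which fold glycoproteins and form disulphide bonds in the endoplasmic reticulum, none was past 2-fold, with a median log2 ratio of -0.08. PDIA4 had the lowest ratio, at 154 FPKM in the resistant and 194 FPKM in the parental library (log2 ratio -0.33). PDIA6 had 384 and 428 FPKM (log2 ratio -0.16), and the lectin CALR (calreticulin) had 349 and 351 FPKM, resistant first. CANX (calnexin), its membrane-bound partner, had 208 FPKM in the resistant and 198 FPKM in the parental library (log2 ratio 0.08, below 0 with libraries scaled to the same sum).

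The 11 FKBP prolyl isomerases outside the HSP90 group had a median log2 ratio of -0.12, none past 2-fold. FKBP10, which acts on collagen in the endoplasmic reticulum, had the lowest ratio, with 69.2 FPKM in the resistant and 89.6 FPKM in the parental library (log2 ratio -0.37). FKBP2, also of the endoplasmic reticulum, had 85.1 FPKM in the resistant and 72.3 FPKM in the parental library (log2 ratio 0.23). The locus named FKBP1A-SDCBP2, a read-through name, had 75.6 and 83.0 FPKM (log2 ratio -0.13). A further locus of that name without a strand had 1.08 and 6.49 FPKM (log2 ratio -1.85). Those values are in the ratio 1 to 6 of whole read worths, and the number of reads is unknown. FKBP8, of the mitochondrial outer membrane, had 92.7 and 108 FPKM (log2 ratio -0.22), and FKBP1B, which binds ryanodine receptors, had the highest ratio, at 6.72 and 5.25 FPKM (log2 ratio 0.30), resistant first.

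None of the 5 stress sensors and factors was past 2-fold, with a median log2 ratio of -0.15. HSF1 had 48.1 FPKM in the resistant and 47.9 FPKM in the parental library, and HSF2, a related factor, had 38.8 and 45.2 FPKM (log2 ratio -0.22), resistant first. XBP1 had the highest ratio of these, with 33.5 FPKM in the resistant and 24.7 FPKM in the parental library (log2 ratio 0.43). ATF6 had 59.4 and 66.1 FPKM (log2 ratio -0.15) and ERN1 had 3.67 and 4.40 FPKM (log2 ratio -0.21), resistant first. These are RNA levels, and neither the splicing of XBP1 nor the activity of any factor was measured.

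The 3 elements bound by these factors were looked for in RefSeq promoter windows, 250 bases before to 50 after each start, on both strands. Of the members, 88 had a window. The heat shock element was taken as 3 alternating triplets, GAA and TTC, with any 2 bases between neighbours. It was found at 7 members (7.95%), against 0.608% of all 27305 genes with a window. The 6 of these that were compared had a median log2 ratio of -0.19, from -0.27 to 0.03, and none was past 2-fold. The sites are shown because these members include the most abundant chaperones, with the triplets in capitals and 8 bases on each side, read 5′ to 3′ on the gene's strand; HSPA8, HSP90AB1 and HSPD1 hold a further match each. They lie at chr11:123062171-123062199 (minus strand) for HSPA8, chr6:44247770-44247798 (plus) for HSP90AB1, chr14:102087112-102087140 (minus) for HSP90AA1, chr2:197500060-197500088 (minus) for HSPD1, chr9:33025268-33025296 (plus) for DNAJA1, chr7:157336865-157336893 (plus) for DNAJB6 and chr1:161524458-161524486 (plus) for HSPA6.
HSPA8: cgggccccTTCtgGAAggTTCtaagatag
HSP90AB1: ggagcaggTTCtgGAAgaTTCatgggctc
HSP90AA1: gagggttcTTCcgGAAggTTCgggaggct
HSPD1: attttctgGAAagTTCtgGAAccgagcga
DNAJA1: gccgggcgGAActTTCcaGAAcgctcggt
DNAJB6: agagccgaGAAccTTCgcGAAggtggggc
HSPA6: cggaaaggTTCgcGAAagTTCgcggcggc

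The ER stress element, CCAAT and CCACG with 9 bases between, was found at 6 members (6.82%), against 0.0916% of all genes with a window. Their median log2 ratio was -0.01, from -0.16 to 0.43, and none was past 2-fold. The sites are shown because the members that hold them include HSPA5 and HSP90B1 of the endoplasmic reticulum. Both parts are in capitals, in the same layout. CALR holds the element on the opposite strand, and HSP90B1 a further match. They lie at chr9:125241383-125241417 (minus strand) for HSPA5, chr12:103930208-103930242 (plus) for HSP90B1, chr22:28800595-28800629 (minus) for XBP1, chr2:10812845-10812879 (minus) for PDIA6, chr5:179698770-179698804 (plus) for CANX and chr19:12938376-12938410 (plus) for CALR.
HSPA5: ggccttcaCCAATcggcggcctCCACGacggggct
HSP90B1: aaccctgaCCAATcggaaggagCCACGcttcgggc
XBP1: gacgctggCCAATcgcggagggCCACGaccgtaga
PDIA6: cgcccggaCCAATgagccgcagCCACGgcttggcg
CANX: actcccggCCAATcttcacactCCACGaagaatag
CALR: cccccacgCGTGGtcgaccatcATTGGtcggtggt

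The unfolded protein response element TGACGTG was found at 4 members (4.55%), against 2.40% of all genes with a window: DNAJC10, DNAJC25, FKBP11 and HSP90AB1. Any match is a description of letters, not of a bound site.

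The members were abundant genes, and abundant genes as a whole lay below 0. A mean of at least 100 FPKM was reached by 36 members (35.6%) and by 1065 of all genes compared (8.59%). Of these 36 members, 31 (86.1%) had a ratio below 0, with a median of -0.18. Among all genes at that level 72.3% had a ratio below 0, with a median of -0.11. The summed level of the members was 11729 FPKM in the resistant and 13233 FPKM in the parental library, or 1.08% and 1.30% of each library's sum. The largest value of any gene compared was 146228 FPKM in the resistant and 56508 FPKM in the parental library. Such values weigh on these shares and on the scaling to the same sum. Fewer cells with a given RNA and less of it per cell cannot be told apart in such bulk samples.

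**Figure D4:**
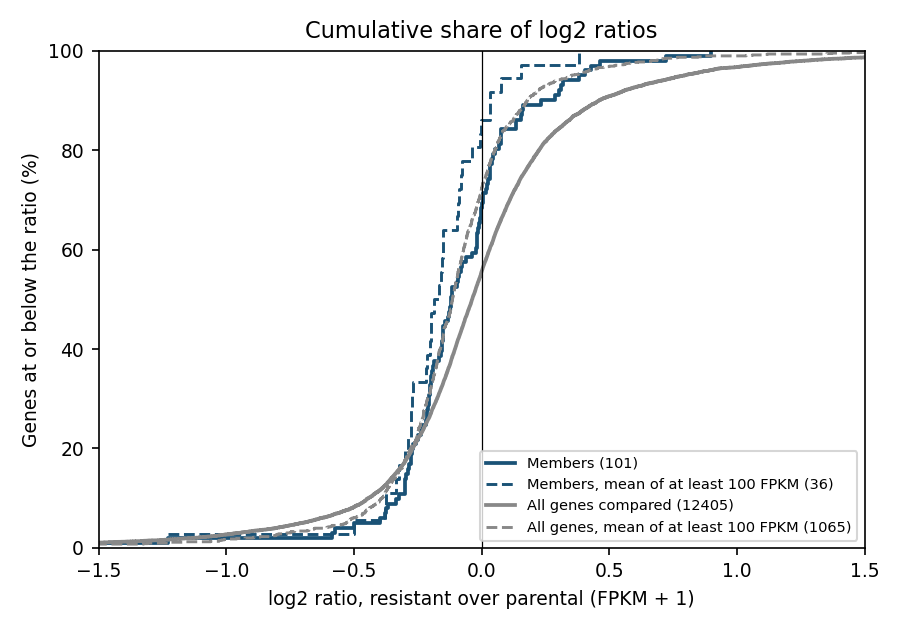
Share of genes (%) at or below each log2 ratio of resistant over parental FPKM + 1, for members (dark blue) and all genes compared (grey), at all levels (solid) and with a mean of at least 100 FPKM (dashed). At a ratio of 0 the members stand at 69.3% and all genes at 55.6%, and above 100 FPKM at 86.1% and 72.3%.

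Compartments were assigned with values known, and the lists are not complete: FKBP8, ATF6 and ERN1 are in neither. The 7 members listed as mitochondrial all had a ratio below 0, with a median of -0.16. Of the 20 members listed for the endoplasmic reticulum, 14 (70.0%) had a ratio below 0, with a median of -0.01. Among all genes compared 55.6% had a ratio below 0, and 72.3% of those with a mean of at least 100 FPKM. Of 38 further folding genes that are no members, none was past 2-fold, and their median was -0.12. The highest ratio of these was that of the heat shock factor HSF4, at 9.29 FPKM in the resistant and 7.68 FPKM in the parental library (log2 ratio 0.24), and the lowest that of the mitochondrial CLPX, at 29.5 and 40.9 FPKM (log2 ratio -0.46). Of 29 further genes of the unfolded protein response and degradation, 1 was past 2-fold higher, where 3.28% of all genes compared were. That gene was EIF2AK3 (PERK), the sensor kinase of the endoplasmic reticulum that slows translation. EIF2AK3 had 37.1 FPKM in the resistant and 17.3 FPKM in the parental library (log2 ratio 1.06). It was within 2-fold with libraries scaled to the same sum. The median of those 29 genes was 0.02.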

How the data were processed

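The members and gene lists were chosen with earlier results of these data known. The deposited table holds FPKM values, 1 column for each of the libraries per the file headers, and 0 columns were left unmatched. The submitters' processing notes name TopHat2, without a version, and hg38. Which program and annotation gave the FPKM is not given in the sources used here.

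Unnamed (2919) and date-named (23) loci of 19217 were left out. Where a name had several loci, the one of highest mean FPKM was taken. A strand was inferred from the order of the loci, with boundaries set to fit the annotated strands. Of 11740 annotated loci placed on a strand, 98.7% lay on their annotated strand, an agreement partly built in by that fit. Genes reaching 1 FPKM in at least 1 library were kept. The log2 ratio was taken as resistant over parental after adding 1 FPKM to both, which understates differences of low genes. The 95% range of like level came from 20 bins of mean level. Genes named were those past or nearest 2-fold, the extremes and the 3 most abundant of each role group, and fixed symbols. Scripts were tested on simulated data. Alternatives were the pseudocount, filter, scaling, choice of locus and limit. Python 3.11.15, pandas 2.3.3 and matplotlib 3.10.9 were used.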

Additional observations from a re-analysis of the deposited data

Results flagged for a closer look

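BAG2, an exchange factor of HSP70, had further loci without a strand that the main comparisons did not use. The higher had 7.98 FPKM in the resistant library and 1.78 FPKM in the parental library (log2 ratio 1.69), in the ratio 9 to 2 of whole read worths. The lower had 3.54 FPKM in the resistant and 2.58 FPKM in the parental library (log2 ratio 0.34). With all loci of a name summed, BAG2 had a log2 ratio of 0.38, above BAG5 at 0.13. The locus that stood for BAG2 had 23.0 FPKM in the resistant and 21.9 FPKM in the parental library (log2 ratio 0.07, a sign that depends on the scaling). The higher locus without a strand was picked out because it is signal outside the main measurement, and the number of reads behind it is unknown.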

How the results depend on the processing

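No paired analysis was possible because each group has 1 library, and for the same reason no library could be left out. The count of members past 2-fold lower was 1 with loci on a strand alone, where DNAJA4 has none and PFDN4 stayed past the limit. Of all genes so compared, 2.50% were past it. With a 4-fold limit the count lower was 1, DNAJA4, where 0.484% of all genes were. With a 1.5-fold limit, 2 members were past it higher, DNAJB5 and HSPBAP1, where 7.59% of all genes were. Past it lower were 3 members, DNAJA4, HSPA2 and PFDN4, where 6.59% of all genes were. EIF2AK3 had a log2 ratio of 0.92 with a pseudocount of 5 FPKM and 0.97 with libraries scaled to the same sum. The median of the stress sensors and factors was -0.02 with all loci of a name summed. The median of all members ran from -0.20 with the same sum to -0.08 when divided by the median ratio. With these scalings, 26 members changed sign, 59 stayed below 0 and 16 above 0. With the same sum, 84.2% of members and 66.1% of all genes compared had a ratio below 0. When divided by the median ratio, 58.4% of members and 49.9% of all genes did. DNAJA4 had -1.47 with a pseudocount of 5 FPKM and -2.65 with 0.1 FPKM. The setting restricted to a mean of at least 100 FPKM was added after seeing the data. Depth is unknown, which limits low genes most.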
